A study of Mus musculus with 24 samples.

Results

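The genes described are 10 members of the cytosolic HSP90 machinery and its neighbours, followed through bortezomib treatment of mouse multiple myeloma cells: the chaperones Hsp90aa1 and Hsp90ab1, the HSP90 co-chaperones Ahsa1, Fkbp4, Stip1, Chordc1 and Cacybp, the HSP40 proteins Dnaja1 and Dnajb1, and the mitochondrial co-chaperonin Hspe1. Members were found by gene symbol in the platform annotation, which gave 12 probes for 9 of the 10 genes. No probe carried the symbol Hsp90ab1 in that annotation, so this gene has no value here. The other 9 genes had 10 probes above background on at least 2 arrays and were tested among 10970 genes. The resistant lines were 595sp VR and 638bm VR, and the sensitive lines were 595sp and 638bm. Each of the 4 lines was sampled untreated (0 h) and 2, 8, 16 and 24 h into treatment, with 1 array per time and a second array at 24 h, 24 arrays in all. Per the labels, every line is a myeloma derived line from Bcl-XL/Myc double transgenic mice of a background that crossed FVBN with BL/6, so transgenes and background are shared by both arms. The drug dose was 33 nM. How the transgenes were driven, how resistance was obtained and whether a line is 1 clone are not given in the sources used here.

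HSP90 is an ATP-driven molecular clamp that completes the folding of kinases, steroid receptors and other client proteins, and its co-chaperones load clients, time the ATPase cycle or adapt the clamp to client classes. HSP40 proteins carry a J domain, which hands unfolded proteins to HSP70 and triggers its ATPase, and Stip1 (HOP) bridges HSP70 to HSP90. Bortezomib blocks the proteasome, and in many cells the unfolded proteins that follow release heat shock factor 1 to bind inverted repeats of a short unit, the heat shock element. Plasma cells and myeloma cells make large amounts of immunoglobulin and depend heavily on protein quality control.

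RefSeq promoter windows of GRCm38.p6, each 300 bases long with 250 before an annotated start and 50 from that start on, were available for 8 of the members, in 11 windows. None was available for Hsp90aa1 or Hsp90ab1. The only Ahsa1 window (chr12:87266478-87266777), Dnaja1 windows 2 and 3 and Dnajb1 window 2 lie downstream of the first base of their gene. The letters searched were a pair of inverted units, GAANNTTC or TTCNNGAA, and triples of alternating units, GAANNTTCNNGAA or TTCNNGAANNTTC. A pair reads the same on both strands, triples were searched on both strands, and each triple also holds overlapping pairs. A pair was found in 4 windows of 4 members, against 15.1% of all 32851 windows, and a triple in 2 windows of 2 members, against 0.603% of all windows. Positions below count the first base of the gene as +1. Chordc1 holds 5 units in 23 bases that span its start, from -4 to +19, and a further pair from +34 to +41. Hspe1 holds 4 units in 18 bases, from -89 to -72. Fkbp4 holds 1 pair from -151 to -144, and the first of the 3 Dnaja1 windows holds 1 pair from -124 to -117. The windows of Ahsa1, Stip1, Cacybp and Dnajb1 held neither, which says only that these letters are not in these 300 bases. For Ahsa1 these bases lie inside the gene, so those before its first base were not searched. The 4 windows with a match and that of Stip1, a member called higher under treatment without one, are printed 5′ to 3′ with the matched units in capitals. These windows set members called higher in a test below beside Fkbp4 and Dnaja1, which passed none. They lie at chr9:18292017-18292316 on the plus strand (Chordc1), chr1:55087898-55088197 on the plus strand (Hspe1), chr6:128438607-128438906 on the minus strand (Fkbp4), chr4:40722218-40722517 on the plus strand (Dnaja1) and chr19:7039977-7040276 on the minus strand (Stip1).
Chordc1: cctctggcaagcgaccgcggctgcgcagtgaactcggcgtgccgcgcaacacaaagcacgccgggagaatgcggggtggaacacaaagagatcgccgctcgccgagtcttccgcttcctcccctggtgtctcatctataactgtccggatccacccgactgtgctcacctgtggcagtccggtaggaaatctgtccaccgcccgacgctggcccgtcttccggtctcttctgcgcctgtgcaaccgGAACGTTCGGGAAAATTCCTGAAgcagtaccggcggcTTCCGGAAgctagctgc
Hspe1: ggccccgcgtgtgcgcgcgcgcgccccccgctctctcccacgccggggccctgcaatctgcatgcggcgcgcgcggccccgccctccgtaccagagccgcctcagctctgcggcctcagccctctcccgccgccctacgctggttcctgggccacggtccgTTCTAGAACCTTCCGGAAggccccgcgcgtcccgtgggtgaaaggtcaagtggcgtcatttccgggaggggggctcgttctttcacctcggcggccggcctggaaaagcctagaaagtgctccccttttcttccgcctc
Fkbp4: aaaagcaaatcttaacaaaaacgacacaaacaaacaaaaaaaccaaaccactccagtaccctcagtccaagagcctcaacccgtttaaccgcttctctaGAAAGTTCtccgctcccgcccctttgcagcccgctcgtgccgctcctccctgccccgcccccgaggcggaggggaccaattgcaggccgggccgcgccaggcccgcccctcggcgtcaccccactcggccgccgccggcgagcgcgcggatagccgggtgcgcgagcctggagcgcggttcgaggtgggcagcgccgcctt
Dnaja1: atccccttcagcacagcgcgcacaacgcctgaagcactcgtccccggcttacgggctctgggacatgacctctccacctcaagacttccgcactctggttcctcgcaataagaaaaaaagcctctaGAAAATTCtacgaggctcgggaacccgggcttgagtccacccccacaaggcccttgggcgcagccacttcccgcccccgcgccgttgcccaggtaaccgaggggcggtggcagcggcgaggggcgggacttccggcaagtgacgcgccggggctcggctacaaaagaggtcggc
Stip1: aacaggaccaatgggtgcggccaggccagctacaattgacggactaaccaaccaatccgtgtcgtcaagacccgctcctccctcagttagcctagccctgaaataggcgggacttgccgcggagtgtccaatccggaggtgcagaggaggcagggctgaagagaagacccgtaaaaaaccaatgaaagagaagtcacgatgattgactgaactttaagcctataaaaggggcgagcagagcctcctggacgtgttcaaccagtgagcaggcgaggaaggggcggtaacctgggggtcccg

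**Figure D1:**
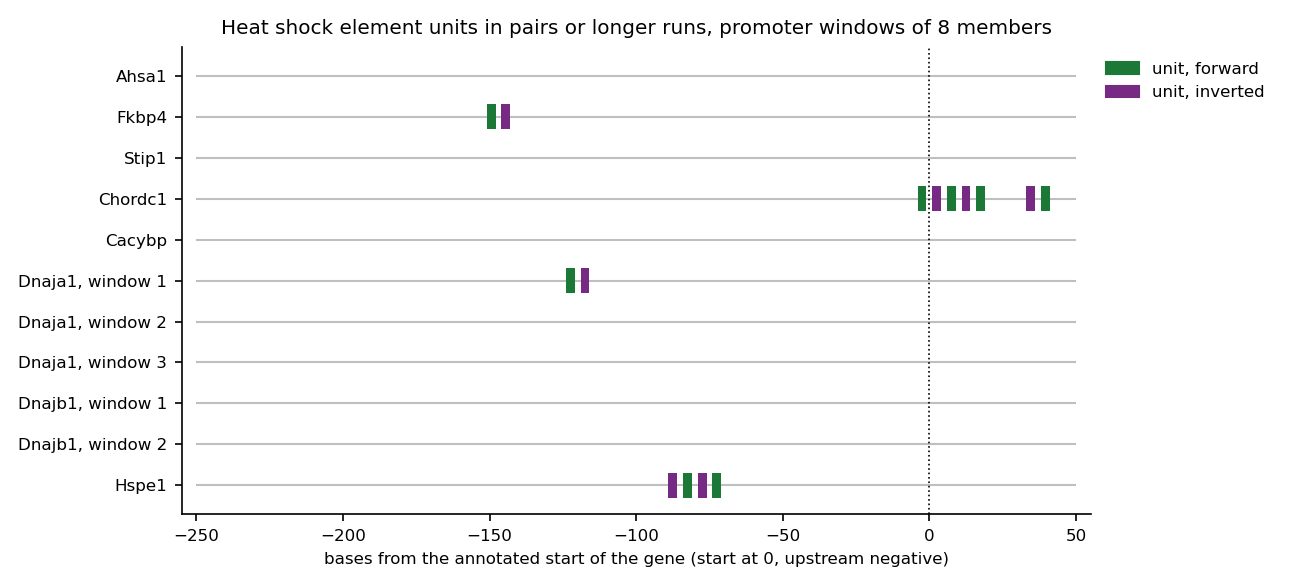
Positions of heat shock element units in the 11 RefSeq promoter windows of 8 members (GRCm38.p6), with the distance from the annotated start of each window in bases on the x axis (start at 0) and 1 window per row. Each mark is a unit of a pair or longer run, coloured by its orientation, and Chordc1 and Hspe1 carry runs of 5 and 4 units where Fkbp4 and the first Dnaja1 window carry 1 pair each.

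Between 15257 and 17368 of 45281 probes were above background on an array, and the number of arrays limits the precision of every value below. Of 10 plasma cell markers, 6 could be tested and were above background on all 24 arrays (Mzb1, Pou2af1, Xbp1, Irf4, Slamf7 and Sdc1), whereas the probes of Prdm1, Tnfrsf17 and Jchain were above background on 0 arrays. Of the T cell markers, Cd4 and Cd8a were above background on 0 arrays, Cd3e on 3 and Cd3d on 7. Of the myeloid markers, Lyz2 and Adgre1 were so on 0 arrays, Itgam on 1 and Csf1r on 11, and of the stromal markers Col1a1 and Col1a2 on 0 and Pdgfrb on 1. The erythroid marker Hba-a1 was above background on 5 arrays. At 24 h in the sensitive lines 1 plasma cell marker was called higher and 2 lower, and their part in the members' changes was not tested. The labels do not say that arrays came from separate cultures, so p-values measure only the spread of changes between the 2 lines of an arm, which may be technical. That spread is pooled over both arms and all times and moderated by limma with that of other genes, so an arm has no error of its own. In such bulk samples, fewer cells of a type and less RNA per cell cannot be told apart. Times are those of the titles, which 4 of the 6 638bm VR samples contradict in their timepoint characteristic. The first arrays of 595sp and the untreated array of 595sp VR shared a run of 6 neighbouring table columns whose background was lower (5.45 to 5.54 on the log2 scale, against 5.86 to 6.19 in the other columns). All treated arrays of 595sp VR lay outside that run, so within this line a change from 0 h and the run cannot be told apart. Both arrays of 595sp at 24 h differed over all genes by an SD of 0.263, against 0.183 to 0.199 in the other lines.

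The first comparison asked which members respond to bortezomib in each arm. In the resistant lines, 4 of the 9 members were higher at 8 h than at 0 h (Hsp90aa1, Chordc1, Cacybp and Hspe1), when 1.76% of all genes tested were called higher. At 16 h it was Chordc1 alone, with 0.693% of all genes, and at 24 h Cacybp alone, with 0.729%. In the sensitive lines, 5 members were higher at 8 h (Hsp90aa1, Ahsa1, Stip1, Chordc1 and Hspe1), against 2.36% of all genes. At 16 h and at 24 h these 5 and Dnajb1 were higher, 6 of 9 each time, against 4.97% and 13.3% of all genes. At 2 h the test called 0 members in either arm, when 0.438% of all genes were called higher in the resistant and 0.0273% in the sensitive lines, with 2 and 0 members at an unadjusted p under 0.05. No member was called lower at any time in either arm. Of all 10970 genes, 88, 254, 77 and 86 were called lower in the resistant lines at 2, 8, 16 and 24 h. In the sensitive lines 3, 334, 477 and 1106 were, the last being 10.1%. The calls are those of limma at a Benjamini-Hochberg adjusted p under 0.05 over all genes tested. The median change of the members on the log2 scale was 0.25, 0.64, 0.60 and 0.44 at 2, 8, 16 and 24 h in the resistant lines, where the median of all genes lay between -0.02 and 0.01. In the sensitive lines it was 0.15, 1.03, 1.16 and 0.81, where the median of all genes lay between -0.01 and 0.06. Without 595sp VR or without 638bm VR, the test called 0 members in the resistant arm at 8, 16 and 24 h, and 1, 3 and 3 in the sensitive arm. Without 595sp it called 1 member in the sensitive arm at 8 h, and in the resistant arm at 8 h it called 1 with the times of the characteristic and 2 with the column runs as a term.

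**Figure D2:**
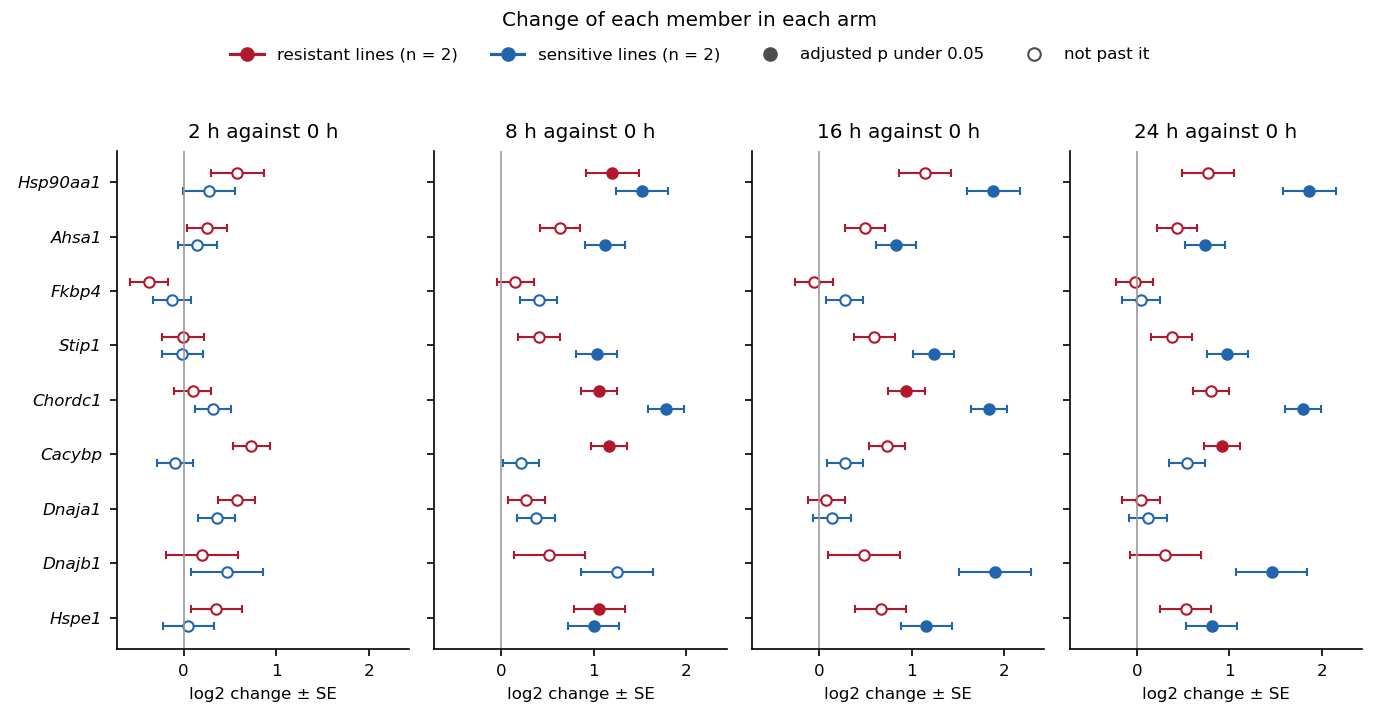
Change from 0 h in log2 units (x axis) for the 9 members tested (rows), in 4 panels for 2, 8, 16 and 24 h against 0 h, with the resistant lines above the sensitive lines in each row. Points are fitted changes with their SE (2 lines per arm) and filled points were called by limma. Cacybp is filled for the resistant lines alone, at 8 and 24 h, and Dnajb1 for the sensitive lines alone, at 16 and 24 h.

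Gene positions are those of GRCm38.p6 in RefSeq. Hsp90aa1 (chr12:110691036-110696395) encodes the inducible form of cytosolic HSP90. Its log2 level in 595sp VR was 10.08 at 0 h, 10.96 at 2 h, 11.57 at 8 h, 11.44 at 16 h, and 11.23 and 11.10 on the arrays of 24 h, and in 638bm VR it was 10.66, 10.95, 11.57, 11.58, 11.16 and 11.07. The sensitive line 595sp had 8.66 at 0 h, 9.43 at 2 h, 11.06 at 8 h, 11.05 at 16 h, and 10.37 and 11.26 at 24 h, and 638bm had 10.25, 10.03, 10.90, 11.63, 11.85 and 11.80. All arrays from 8 h on lay above the untreated array of their own line, and the untreated array of 595sp was the lowest of the 24. In the resistant lines Hsp90aa1 rose 2.30-fold at 8 h (1.20 ± 0.28 on the log2 scale, ± SE here and below, limma adjusted p = 0.0274), and its change at 24 h was 0.77 ± 0.28 (adjusted p = 0.214). It rose in the sensitive lines 2.87-fold at 8 h (adjusted p = 0.00597), 3.69-fold at 16 h (adjusted p = 0.0011) and 3.64-fold at 24 h (adjusted p = 0.000325). A second, dimmer probe of the gene was higher in both arms from 8 h on, by 1.45, 1.21 and 1.05 in the resistant lines (adjusted p over all kept probes = 0.00122, 0.00685 and 0.013) and by 1.06, 1.30 and 1.50 in the sensitive lines (adjusted p = 0.00552, 0.00096 and 9.29e-05). Both probes therefore passed in the sensitive lines at 8, 16 and 24 h, while in the resistant lines the calls at 16 and 24 h rest on the dimmer probe. The remaining probe of the gene was above background on 1 of 24 arrays and gives no value.

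Among the HSP90 co-chaperones, Chordc1 (chr9:18292267-18314000), a CHORD domain protein that binds HSP90, had the smallest p-values of the members in the sensitive lines at 8, 16 and 24 h against 0 h. Its log2 level in 595sp VR was 10.65, 10.76, 11.78 and 11.50 at 0, 2, 8 and 16 h, and 11.50 and 11.52 at 24 h, and in 638bm VR it was 10.46, 10.54, 11.44, 11.50, 11.30 and 11.11. The levels in 595sp were 10.22, 10.73, 12.11 and 12.01 at 0, 2, 8 and 16 h, and 11.91 and 11.56 at 24 h, and those in 638bm were 10.12, 10.25, 11.79, 12.00, 12.28 and 12.11. Untreated, both resistant lines lay above both sensitive lines, whereas at 8, 16 and 24 h every resistant array lay below every sensitive array of that time. Chordc1 rose 2.07-fold at 8 h in the resistant lines (1.05 ± 0.20, limma adjusted p = 0.00781) and 1.93-fold at 16 h (adjusted p = 0.0267), and at 24 h its change was 0.80 ± 0.20 (adjusted p = 0.0526). Its rise in the sensitive lines was 3.43-fold at 8 h (1.78 ± 0.20, adjusted p = 0.000181), 3.56-fold at 16 h (adjusted p = 0.00012) and 3.47-fold at 24 h (adjusted p = 3.65e-05). The sensitive calls at 8 h and 24 h held under each of the 17 alternative settings, and the resistant change at 24 h was called under 10 of them.

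Stip1 (chr19:7020696-7040026) was at 11.41, 11.43, 11.81 and 11.89 in 595sp VR at 0, 2, 8 and 16 h and at 11.69 and 11.66 at 24 h, and in 638bm VR at 10.85, 10.82, 11.27, 11.56, 11.31 and 11.37. For 595sp the level was 10.70, 10.79, 12.00 and 11.81 at 0, 2, 8 and 16 h and 11.27 and 11.40 at 24 h, and for 638bm 10.89, 10.76, 11.65, 12.26, 12.32 and 12.09. The arms overlapped at 0, 8, 16 and 24 h, and at 2 h both resistant arrays lay above both sensitive arrays. Resistant lines had changes of 0.41, 0.60 and 0.38 ± 0.22 at 8, 16 and 24 h, which did not pass the test (limma adjusted p = 0.343, 0.213 and 0.487). Stip1 rose in the sensitive lines 2.04-fold at 8 h (adjusted p = 0.0148), 2.36-fold at 16 h (adjusted p = 0.00345) and 1.97-fold at 24 h (adjusted p = 0.00528).

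Ahsa1 (chr12:87266415-87273998), an activator of the HSP90 ATPase, had the same pattern of calls as Stip1. Its log2 level in 595sp VR was 9.93, 10.27, 10.54 and 10.27 at 0, 2, 8 and 16 h, and 10.49 and 10.16 at 24 h, and in 638bm VR it was 10.09, 10.26, 10.75, 10.76, 10.54 and 10.59. The level in 595sp was 9.02, 9.44, 10.63 and 9.90 at 0, 2, 8 and 16 h, and 9.71 and 9.88 at 24 h, and in 638bm it was 9.30, 9.17, 9.93, 10.09, 10.15 and 9.84. At 0, 2, 16 and 24 h every resistant array was above every sensitive array, and at 8 h the 595sp array lay between the resistant ones. Changes in the resistant lines at 8, 16 and 24 h were 0.64, 0.50 and 0.44 ± 0.21 (limma adjusted p = 0.111, 0.291 and 0.383). Ahsa1 rose in the sensitive lines 2.18-fold at 8 h (1.12 ± 0.21, adjusted p = 0.00675), by 0.83 at 16 h (adjusted p = 0.0233) and by 0.74 at 24 h (adjusted p = 0.021) on the log2 scale.

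Cacybp (chr1:160202367-160212892), a protein that binds calcyclin and Siah ubiquitin ligases and has a domain shared with HSP90 co-chaperones, passed the test in the resistant lines at 8 and 24 h and at no time in the sensitive lines. Its log2 level in 595sp VR was 6.80, 7.69, 7.87 and 7.54 at 0, 2, 8 and 16 h, and 7.66 and 7.83 at 24 h, and in 638bm VR it was 7.05, 7.63, 8.32, 7.79, 7.81 and 8.08. Its level in 595sp was 5.91, 5.72, 5.97 and 5.74 at 0, 2, 8 and 16 h, and 5.76 and 6.64 at 24 h, and in 638bm it was 6.88, 6.89, 7.25, 7.62, 7.53 and 7.82. At 2 h and at 8 h both resistant arrays lay above both sensitive arrays, and at 16 and 24 h the arms overlapped through 638bm. Cacybp rose 2.24-fold at 8 h (1.17 ± 0.20, limma adjusted p = 0.00489) and 1.89-fold at 24 h (0.92 ± 0.20, adjusted p = 0.0286) in the resistant lines, with 0.73 at 2 h (adjusted p = 0.0827). In the sensitive lines the changes at 8 h and 24 h were 0.21 and 0.54 ± 0.20 (adjusted p = 0.583 and 0.0574). In 595sp the probe was dim, at 5.72 to 5.97 except on the second 24 h array, and the background offset lowers fold changes of dim probes. Those dim arrays and the untreated 595sp VR array, at 6.80, shared the column run of lower background. The second 595sp array of 24 h, at 6.64, and the treated 595sp VR arrays, at 7.54 to 7.87, lay outside it. In 638bm VR the untreated and 8 h arrays, at 7.05 and 8.32, shared a run. The part of the runs in these values was not tested. In 638bm the changes at 16 and 24 h were 0.73 and 0.79, beside 0.74 and 0.92 in the resistant lines. The sensitive change at 24 h was called without 595sp, at 0.79 (adjusted p = 0.0306), and with the second 24 h array alone, at 0.83 (adjusted p = 0.00746), the 595sp arrays lying -0.15 and 0.73 from 0 h. The resistant call was lost in 4 of 17 settings at 8 h and in 6 at 24 h.

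Fkbp4 (chr6:128430103-128438656), the immunophilin FKBP52 of steroid receptor complexes, was called at no time in either arm. It lay between 11.54 and 12.63 on the 12 arrays of the resistant lines and between 11.23 and 12.62 on the 12 of the sensitive lines. At 2 h its change was -0.38 ± 0.20 in the resistant and -0.13 ± 0.20 in the sensitive lines, and at 8 h it was 0.15 and 0.40 (limma adjusted p at 8 h = 0.275 in the sensitive lines). At 2 h 3 of the 4 lines lay below their 0 h level, and at 8 h all 4 lay above it.

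Of the HSP40 members, Dnajb1 (chr8:83608175-83612653), the J protein of the cytosol that works with inducible HSP70, was the one that passed a test. Its log2 level in 595sp VR was 10.48, 10.53, 10.95 and 10.74 at 0, 2, 8 and 16 h, and 10.62 and 10.77 at 24 h, and in 638bm VR it was 10.02, 10.37, 10.60, 10.73, 10.38 and 10.48. In the line 595sp it was 9.82, 11.06, 11.62 and 12.12 at 0, 2, 8 and 16 h, and 10.88 and 10.69 at 24 h, and in 638bm it was 10.03, 9.72, 10.73, 11.54, 11.97 and 11.98. At 16 h both sensitive arrays lay above both resistant arrays, and at 24 h the 638bm arrays were higher than all others while a 595sp array lay within the range of 595sp VR. In the resistant lines the changes at 8, 16 and 24 h were 0.52, 0.48 and 0.31 ± 0.39 (limma adjusted p = 0.509, 0.631 and 0.787). Dnajb1 rose in the sensitive lines 3.74-fold at 16 h (1.90 ± 0.39, adjusted p = 0.00751) and 2.74-fold at 24 h (1.46 ± 0.39, adjusted p = 0.013), with 1.25 at 8 h (adjusted p = 0.0703). At 2 h the 595sp array was 1.24 above its 0 h level and the 638bm array -0.30 from its own.

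Dnaja1 (chr4:40722468-40734965), a J protein of the cytosol, was near background throughout, with a log2 level between 4.85 and 5.63 on all arrays. Its probe was above background on 6 of 24 arrays, which were all 4 arrays of 2 h, that of 595sp at 8 h and 1 of 638bm at 24 h. Since it was above background on no untreated array, the difference between measured means can only be bounded. At 2 h the lower bound was 1.08-fold in the resistant lines (measured means 5.59 at 2 h and 5.01 at 0 h, limma adjusted p = 0.181). In the sensitive lines it was 1.05-fold (5.45 at 2 h and 5.09 at 0 h, adjusted p = 0.719). These bounds leave out the error of the means, and a rise was not shown in either arm. None of its changes was called. The other probe of the gene was above background on 0 arrays.

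Hspe1 (chr1:55088148-55091317) encodes HSP10, the lid of the HSP60 folding chamber in mitochondria. Its log2 level in 595sp VR was 10.53, 11.13, 11.61 and 11.28 at 0, 2, 8 and 16 h, and 11.01 and 11.31 at 24 h, and in 638bm VR it was 10.32, 10.43, 11.37, 10.90, 10.72 and 10.78. Among the sensitive lines, 595sp had 9.94, 9.88, 11.46 and 11.05 at 0, 2, 8 and 16 h, and 9.93 and 10.89 at 24 h, and 638bm had 10.61, 10.77, 11.09, 11.82, 11.71 and 11.84. The arms overlapped at every time. Hspe1 rose 2.09-fold at 8 h in the resistant lines (1.06 ± 0.28, limma adjusted p = 0.0418). It rose in the sensitive lines 2.00-fold at 8 h (adjusted p = 0.0449), 2.23-fold at 16 h (adjusted p = 0.0158) and 1.76-fold at 24 h (adjusted p = 0.0437). These calls lie close to the threshold, and under the 17 alternative settings the call was lost in 9 for the resistant lines at 8 h, in 12 for the sensitive lines at 8 h and in 11 at 24 h. Hspd1, which encodes HSP60 and starts on the opposite strand beside Hspe1, had changes at 8 h of 0.38 ± 0.23 in the resistant (adjusted p = 0.387) and 0.47 ± 0.23 in the sensitive lines (adjusted p = 0.246). Of the 4 other mitochondrial chaperone genes listed, 1 was called at any time in either arm, Grpel1, the nucleotide exchange factor of mitochondrial HSP70, which was higher in the sensitive lines at 24 h (0.76 ± 0.21, adjusted p = 0.0143). Of all genes, 13.3% were called higher in the sensitive lines at 24 h.

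**Figure D3:**
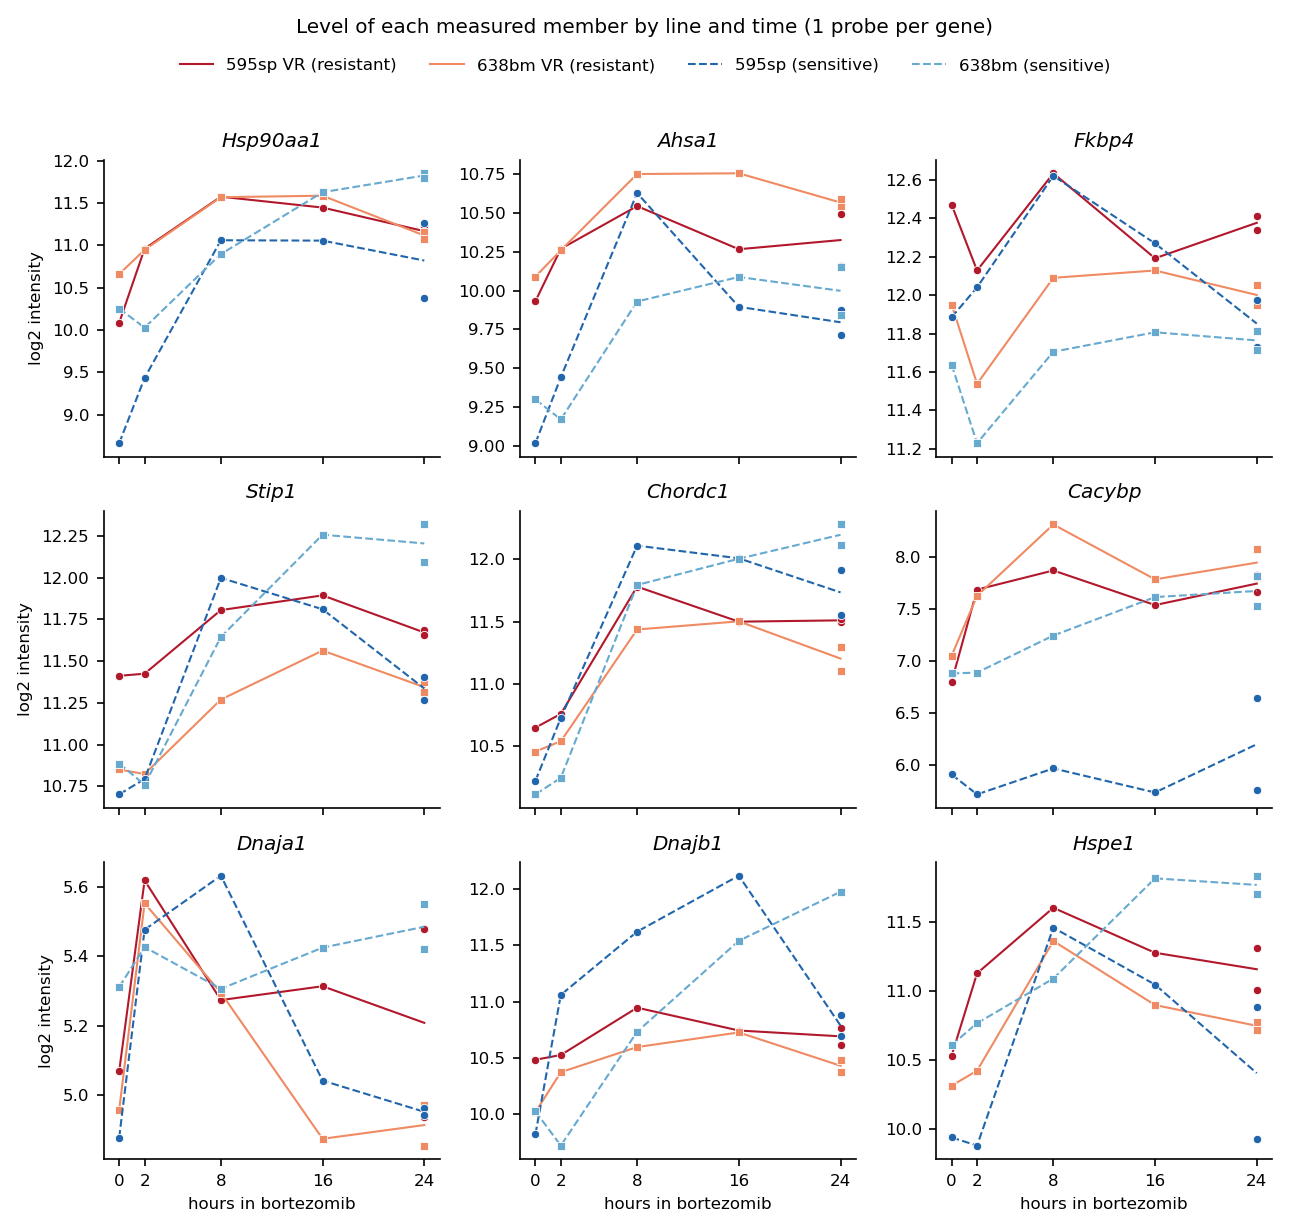
Log2 level of each member tested (1 panel per gene) on every array against time in hours, with resistant lines solid in red and orange and sensitive lines dashed in blue; points are arrays and lines join the means per time. Hsp90aa1, Chordc1, Ahsa1, Stip1 and Dnajb1 lie above their 0 h level from 8 h on in all 4 lines, as does Hspe1 by its means per time. Cacybp of 595sp stays between 5.72 and 6.64.

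The time of the highest change is given by line, with the title times for 638bm VR. In 595sp VR 7 of the 9 members had their highest change at 8 h, and in 595sp also 7 did. In 638bm VR 6 members were highest at 16 h and 2 at 8 h, and in 638bm 4 were highest at 16 h and 5 at 24 h. The median change of the members in 595sp VR was 0.34, 0.61, 0.48 and 0.39 at 2, 8, 16 and 24 h, and in 638bm VR it was 0.17, 0.66, 0.71 and 0.46. In 595sp it was 0.43, 1.52, 1.11 and 0.64, and in 638bm it was -0.13, 0.63, 1.21 and 1.16. At 8 h the members of 595sp stood highest, and at 24 h those of 638bm. With 1 series of arrays per line, these orders are descriptions. The change after 8 h was tested within each arm. In the resistant lines 24 h against 8 h gave values below 0 for all 9 members (-0.53 to -0.03), while 52.5% of all genes lay above 0. Limma called 0 of the 9 members, as it called 0% of all genes, with 0 members at an unadjusted p under 0.05. In the sensitive lines the values ran from -0.38 to 0.34 with 4 above 0, as were 59.0% of all genes. There limma called 0 members, with 0 at an unadjusted p under 0.05, against 14.4% of all genes in either direction. Without 638bm, the sensitive arm was the line 595sp alone, and the median change of the members from 8 h to 24 h was -0.68, against 0.11 over all genes. Without 595sp it was 0.43, against 0.04 over all genes.

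**Figure D4:**
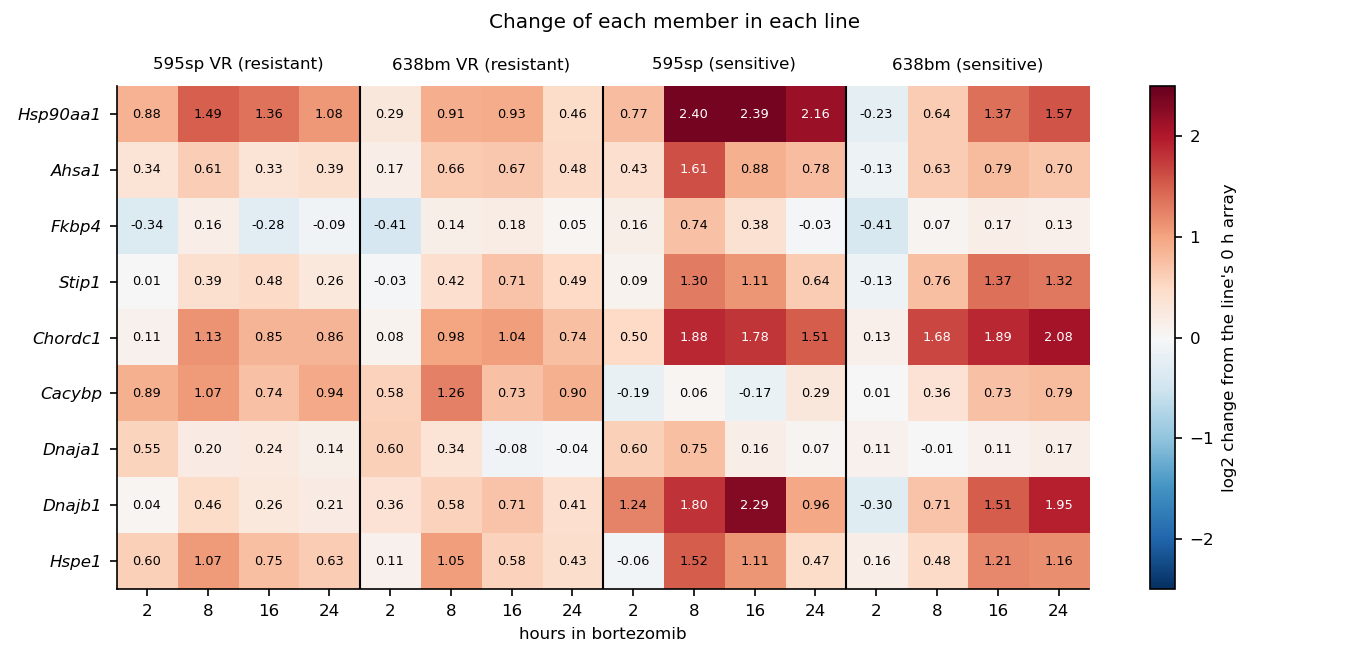
Change from 0 h in log2 units (colour) for each member tested (rows) in each line and time (columns, resistant lines left, sensitive lines right, times from 2 to 24 h within a line). The strongest colours of 595sp lie at 8 and 16 h and those of 638bm at 16 and 24 h, and Fkbp4 and Dnaja1 stay between -0.41 and 0.75.

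The difference between the responses of both arms, which bears on resistance to the drug, was tested as an interaction. Limma called 0 of the 9 members at 2, 8 and 16 h, as it called 0% of all genes at each of these times, with 1, 2 and 2 members at an unadjusted p under 0.05. At 24 h it called 0 members, with 2 at an unadjusted p under 0.05, while 1.26% of all genes were called in either direction. For Chordc1 the resistant minus sensitive response at 8, 16 and 24 h was -0.73, -0.89 and -0.99 ± 0.28 on the log2 scale (adjusted p = 0.712, 0.268 and 0.0839), with a 95% interval at 24 h of -1.58 to -0.41. For Hsp90aa1 the difference at 24 h was -1.09 ± 0.40 (adjusted p = 0.182, interval -1.95 to -0.24), and for Dnajb1 it was -1.42 ± 0.55 at 16 h (adjusted p = 0.355, interval -2.58 to -0.26). The value of Cacybp had the opposite sign, 0.95 ± 0.28 at 8 h (adjusted p = 0.712, interval 0.36 to 1.54). For Stip1 the difference at 8 h was -0.62 ± 0.31 (adjusted p = 0.734, interval -1.29 to 0.05). None of these passed over all genes, so an effect called in 1 arm and not in the other was not shown to differ between them. Without 595sp the difference of Chordc1 at 24 h was called, at -1.28 (adjusted p = 0.0327), and so was that of Dnajb1, at -1.64 (adjusted p = 0.0194), against -1.15 ± 0.55 with all lines (adjusted p = 0.302). Without both 24 h arrays of 595sp these 2 differences were -1.34 and -2.06 (adjusted p = 0.0431 and 0.0445). For Hsp90aa1 at 24 h it was called without 638bm, at -1.39 (adjusted p = 0.0224), and with the column runs as a term, at -1.47 (adjusted p = 0.0438).

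**Figure D5:**
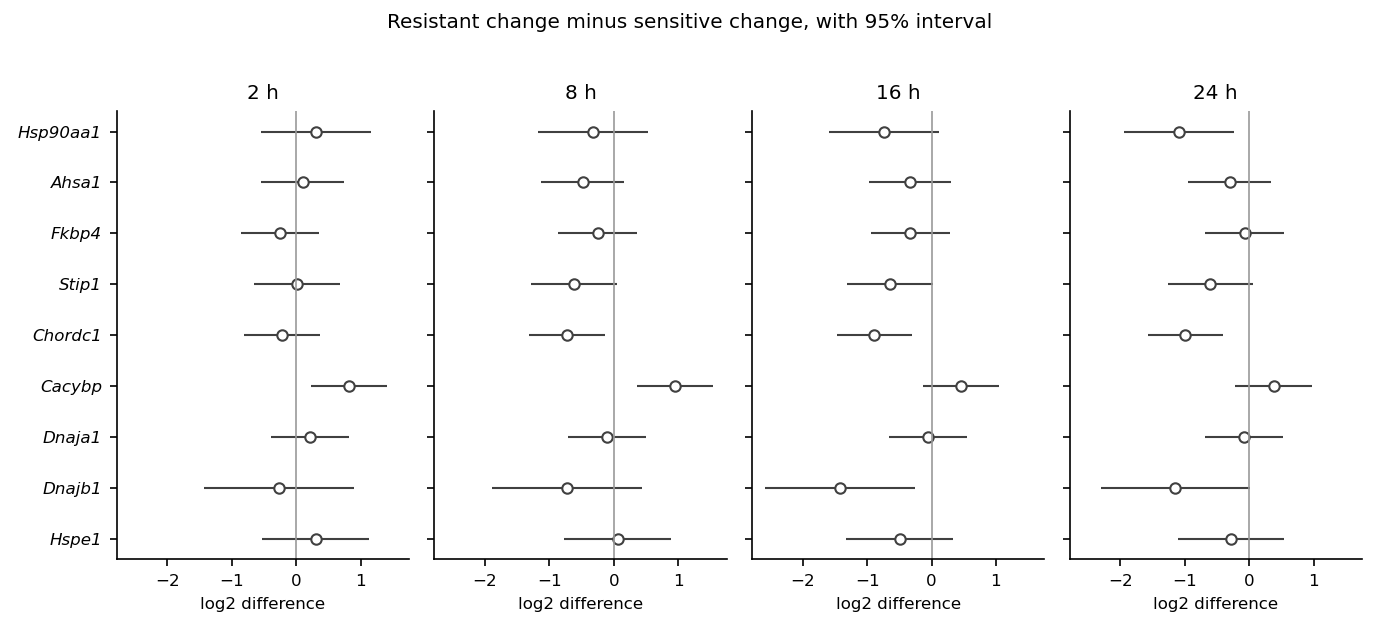
Resistant minus sensitive response in log2 units (x axis) with its 95% interval for the 9 members tested (rows) at 2, 8, 16 and 24 h. The intervals of Chordc1 at 8, 16 and 24 h, Dnajb1 at 16 h and Hsp90aa1 at 24 h lie below 0 and those of Cacybp at 2 and 8 h above 0, and none was called over all 10970 genes.

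Before treatment, 8 of the 9 members had a higher level in the resistant lines, as did 57.5% of all genes. The median difference of the members was 0.38, against 0.09 over all genes. Limma called 0 of the members, with 2 at an unadjusted p under 0.05, against 5.75% of all genes in either direction. The difference of Ahsa1 was 0.85 ± 0.24 (adjusted p = 0.0629), with 0.92 between 595sp VR and 595sp and 0.79 between 638bm VR and 638bm. That of Hsp90aa1 was 0.91 ± 0.37 (adjusted p = 0.169), with 1.42 in the 595sp pair and 0.41 in the 638bm pair. For Chordc1 it was 0.38 ± 0.21 (adjusted p = 0.307), with 0.43 and 0.34. Both pairs differed the same way for these 3 genes, Fkbp4 and Cacybp, while Dnaja1, Stip1, Dnajb1 and Hspe1 had pairs of opposite sign. Errors of this test are too small where the pairs disagree, because its residuals stem mostly from later arrays of these lines. The test also takes the times of a line as independent, although line differences correlated between times (r = 0.771 to 0.926). Its p-values may therefore be too small for any gene, also for those in the share called. Without 638bm, the median difference of the members was 0.67, against 0.07 over all genes, and without 595sp it was 0.15, against 0.08.

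The members were also set beside each other and beside genes outside the group, as descriptions over 16 values (4 lines by 4 times) that share the 0 h array of each line. The changes of Stip1 and Chordc1 had a Pearson r of 0.95 and those of Ahsa1 and Fkbp4 of 0.91, and the lowest pair was Cacybp and Dnajb1 with -0.40. Against the mean of the other members, Cacybp had an r of -0.18 and Dnaja1 of -0.02, and the other 7 lay between 0.78 and 0.89. Outside the group, the 5 genes whose changes were most like the mean change of the members were Hsph1 (r = 0.96), Bpnt1 (0.94), Heatr5a (0.92), Hspb1 (0.91) and Hspa8 (0.91).

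Further HSP90 co-chaperones were read from a list of 26, all tested. Of these, 1 was called higher in the resistant lines at 8 h and 0 at 24 h, with median changes of 0.14 and 0.05, and in the sensitive lines 2 were higher at 8 h and 5 at 24 h, with medians of 0.19 and 0.27, and Tsc1 was the 1 called lower. For the sensitive lines these are shares to read against 2.36% and 13.3% of all genes called higher at 8 h and 24 h, and 10.1% called lower at 24 h. For the resistant lines 1.76% and 0.729% of all genes were called higher at 8 h and 24 h. Ptges3 (p23), which holds the closed HSP90 clamp, was higher at 8 h in both arms, by 1.01 ± 0.18 in the resistant (limma adjusted p = 0.00747) and 0.69 ± 0.18 in the sensitive lines (adjusted p = 0.0394). Ahsa2, a relative of Ahsa1, was higher by 1.40 ± 0.28 at 8 h in the sensitive lines (adjusted p = 0.0094). Tsc1, the tumour suppressor that also binds HSP90, was lower at 24 h in the sensitive lines by 0.74 on the log2 scale (-0.74 ± 0.23, adjusted p = 0.0317), and untreated it was lower in the resistant lines (-1.86 ± 0.31, adjusted p = 0.00873). The Tsc1 probe was above background on 19 of 24 arrays, and its lowest mean of a line was 5.50. Of the HSP90 forms of the organelles, mitochondrial Trap1 was lower at 24 h in the sensitive lines (-0.73 ± 0.18, adjusted p = 0.0073). Hsp90b1 (GRP94) of the endoplasmic reticulum was lower at 24 h than at 8 h in the sensitive lines (-1.31 ± 0.29, adjusted p = 0.0097). Its change at 24 h against 0 h was not called there.

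Of 43 further J-domain genes, 32 were tested. In the resistant lines limma called 0 at every time, with medians between -0.06 and 0.08. The sensitive lines had 2 calls at 8 h (1 in each direction), 5 at 16 h (4 of them higher) and 15 at 24 h (10 of them higher), with a median of 0.38 at 24 h. Of all genes, 2.36%, 4.97% and 13.3% were called higher there at 8, 16 and 24 h, and 3.04%, 4.35% and 10.1% lower. Dnajb2, a J protein that carries ubiquitin-binding motifs, was higher by 1.44 ± 0.27 at 8 h (adjusted p = 0.0059) and by 1.53 ± 0.27 at 24 h (adjusted p = 0.000924). Dnajc12 was higher at 24 h by 1.23 ± 0.19 (adjusted p = 0.000384), and Dnajc16 was lower at 24 h (-1.23 ± 0.18, adjusted p = 0.000285). Of the 8 subunits of the cytosolic chaperonin CCT, 2 were called: Cct7 was higher in the resistant lines at 8 h (0.87 ± 0.17, adjusted p = 0.011) and 24 h (adjusted p = 0.0496), and Cct3 in the sensitive lines at 24 h (0.54 ± 0.16, adjusted p = 0.0221). Of all genes, 1.76% and 0.729% were called higher in the resistant lines at 8 and 24 h, and 13.3% in the sensitive lines at 24 h. The probe of Cct7 was dim, with a mean of 5.84, and above background on 21 of 24 arrays. Of the heat shock factors, Hsf1 had no probe in the annotation. Hsf2, another factor that binds the heat shock element, was higher in the resistant lines at 8 h (1.05 ± 0.19, adjusted p = 0.00747) and in the sensitive lines at 24 h (0.74 ± 0.19, adjusted p = 0.0117). Set beside the promoter windows, the run of units was longest in Chordc1, which was called at 8 h in both arms, and Hspe1, with the next run, was also called at 8 h in both arms, calls that 9 and 12 of 17 settings lost in the resistant and sensitive lines. Fkbp4 and Dnaja1, with 1 pair each, were called at no time, Dnaja1 being near background. Stip1, Ahsa1 and Dnajb1 were called in the sensitive lines and Cacybp in the resistant lines with no match in their windows. The bases before the first base of Ahsa1 were not searched. Hsp90aa1 was likewise called at 8 h in both arms, and no window was available for it.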

How the data were processed

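The deposited table gave an average intensity, unnormalized per the file headers, for each of 45281 probes on 24 Illumina arrays. Total RNA was purified on columns, amplified and biotin-labelled, per the labels' protocols. The authors' processed table, of unstated method and equal array medians (64.37 to 64.38) in intensity units, was an alternative.

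Signals were background-corrected (limma 3.58.1 in R 4.3.3, normexp with offset 16), quantile normalized and put on the log2 scale, the deposited intensity being linear. The offset lowers fold changes of dim probes. A probe was above background where its log2 signal was over 2.326 SDs above the array's mode, the SD coming from values under the mode. The filter asked for 2 or more such arrays (21546 probes), of which 17972 had 1 gene symbol. Over the platform, 34885 probes had 1 symbol, 18 several and 10378 none, and 34807 matched the RefSeq table by gene number. The brightest probe by mean stood for a gene, and both 24 h arrays of a line were averaged, leaving 20 values.

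Limma fitted cell line plus sensitivity by time (degrees of freedom 8 residual, 7.68 prior), and origin plus sensitivity by time for untreated lines, adjusted by Benjamini-Hochberg over 10970 genes. Errors are standard errors. The line pairs the samples of an arm by design, and line differences correlated between times at r = 0.824 to 0.926 in resistant and 0.771 to 0.908 in sensitive lines. All members, other kept probes, up to 4 called genes per further list with the smallest p per arm at 8 h and 24 h, and the 5 genes most like the members could be named. Hspd1 and Hsp90b1 fall outside this rule and were chosen after their values were seen. Members, lists and tests were chosen with earlier results of these data known. On simulated data for the sensitive 24 h change (10970 genes), 53 of 100 genes planted at 1 log2 unit and 100 of 100 at 2 were recovered. Alternatives changed background correction, offset, scaling, filter, probe choice, block, times, 24 h array, column blocks and lines.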

Additional observations from a re-analysis of the deposited data

How the results depend on the processing

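With no replicate block, limma called 0 members in the resistant lines at 8, 16 and 24 h, against 4, 1 and 1 with it, and 1 in the sensitive lines at each of these times, against 5, 6 and 6. Leaving out 1 line in turn, which leaves the other line of that arm assumed to vary like the rest, gave 0 to 1, 0 to 5, 0 to 4 and 0 to 3 members in the resistant lines at 2, 8, 16 and 24 h, and 0, 1 to 6, 3 to 6 and 3 to 7 in the sensitive lines. It gave 0 and 0 to 6 for 24 h against 8 h in the resistant and sensitive lines, 0, 0, 0 to 1 and 0 to 2 for the difference of responses at 2, 8, 16 and 24 h, and 0 to 6 for untreated lines. Median scaling gave 1, 3 and 2 members in the resistant lines at 2, 16 and 24 h, and 1 in untreated lines, against 0. The times of the characteristic gave 1, 1, 0 and 0 in the resistant lines. Runs of 6 table columns as a term gave 2 in the resistant lines at 8 h and 1 for the difference at 24 h. The mean of a gene's probes gave 2 in the resistant lines at 16 and 24 h, and so did leaving out both 24 h arrays of 595sp, which was chosen after seeing the data and gave 2 for the difference at 24 h. No background correction, an offset of 50 and the authors' processed values each gave 2 in the resistant lines at 24 h, and the second 24 h array alone gave 1 in the sensitive lines for 24 h against 8 h.

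Of 918 values of single members under 17 alternatives, 797 kept direction and side of the threshold, 70 lost the call, 25 gained it and 26 changed sign, each of these with adjusted p of at least 0.505; the causes were not tested. Median scaling turned Fkbp4 to 0.16 in the resistant lines at 24 h, and to 0.12 and 0.15 for the difference at 8 and 24 h, and Hsp90aa1 to 0.12 for the difference at 8 h, where the mean of its probes gave 0.032. Column runs gave 0.070 for Fkbp4 in the resistant lines at 24 h and -0.048 for Hspe1 in the difference at 8 h, where the times of the characteristic gave -0.17. With the second 24 h array alone, Dnaja1 was at -0.12 in the resistant and Fkbp4 at -0.039 in the sensitive lines at 24 h, and Fkbp4 at 0.011 for the difference. For the difference of Dnaja1 at 24 h the first array gave 0.12 and the times of the characteristic 0.10. Without 1 line, values ran from -0.094 to 0.050 (Fkbp4) and -0.044 to 0.14 (Dnaja1) in the resistant lines at 24 h, from -0.0052 to 0.75 for Dnaja1 in the sensitive lines at 8 h, and from -0.033 to 0.13 for Fkbp4 there at 24 h. For the difference at 8 h they ran from -1.20 to 0.56 (Hsp90aa1), -0.98 to 0.0058 (Ahsa1), -0.58 to 0.084 (Fkbp4), -0.48 to 0.28 (Dnaja1) and -0.46 to 0.58 (Hspe1), and at 24 h from -0.15 to 0.010 (Fkbp4), -0.17 to 0.015 (Dnaja1) and -0.63 to 0.064 (Hspe1).

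Median scaling moved the median of all genes by over 0.1 at 16 h in the resistant lines (by 0.11) and for the difference of responses at 2, 8, 16 and 24 h (by 0.14, 0.14, 0.18 and 0.11). The split of all calls into higher and lower was then 124 and 67 in the resistant lines at 2 h (48 and 88 in the reported fit), 259 and 237 at 8 h (193 and 254), 218 and 53 at 16 h (76 and 77) and 239 and 76 at 24 h (80 and 86). In the sensitive lines it was 114 and 535 at 8 h (259 and 334), 280 and 556 at 16 h (545 and 477) and 1254 and 448 for 24 h against 8 h (860 and 718). It was 209 and 20 for the difference at 24 h (105 and 33) and 163 and 416 for untreated lines (256 and 375).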
